A study of Mus musculus and Canis lupus familiaris and Equus caballus with 9 samples.

Results

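The Cacng genes encode the gamma subunits first found in voltage-gated calcium channels, and the 8 mouse members, Cacng1 to Cacng8, were examined for binding of NRSF (also called REST) among the 21900 protein-coding genes of a RefSeq gene table. Members were taken by gene symbol. The contrast drawn between them was selected on peak positions already seen in these data, above all the 4 peaks of Cacng2, so the peak counts below are a description and carry no test. NRSF was measured by chromatin immunoprecipitation followed by sequencing (ChIP-seq) in RAW264.7, an established mouse macrophage line from the BALB/c strain, grown to passages 13 to 15, untreated as far as the labels say. The mouse libraries comprised 2 immunoprecipitations with a monoclonal NRSF antibody and 1 input DNA library prepared with no antibody, each from chromatin of cells fixed in 1% formaldehyde. Both immunoprecipitations stand behind a single list of 2357 peaks on mm10, each 400 bp wide, with positions only. The list holds no peak height, read count or replicate value, so replicate error and depth are unknown, and no measure of expression was at hand to check the cell label against macrophage markers. The cells are of neither brain nor muscle, tissues in which Cacng proteins are known to act, and they are a single line. The dog and horse samples of the 9 in the series, and the human list, were not analysed here.

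NRSF is a zinc-finger repressor that recruits chromatin-modifying complexes to a long DNA element and is known for holding neuronal genes silent in other tissues. Among the gamma subunits, 6 are AMPA receptor regulatory proteins, which associate with AMPA-type glutamate receptors. Type I of these comprises stargazin (Cacng2), Cacng3, Cacng4 and Cacng8, which hold the receptors at the synapse and slow their closing. Type II comprises Cacng5 and Cacng7. Cacng1 encodes the gamma subunit of the skeletal muscle calcium channel, and Cacng6 is its closest relative, so both are treated as muscle members.

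Peaks lay at AMPA receptor members and at neither muscle member. With the midpoint of a peak inside the annotated span or within 10 kb of either end, 4 of the 8 members had a peak: Cacng2, Cacng3, Cacng5 and Cacng7. These were 4 of the 6 AMPA receptor members and 0 of the 2 muscle members, with 7 peaks in all. Over all protein-coding genes 1640 of 21900 had a peak by the same count, or 7.49%. Type I members had a peak at 2 of 4 genes and type II members at 2 of 2. The closest peak lay at a median of 4536 bp from the span in the AMPA receptor members, 56293 bp in the muscle members and 298197 bp over all protein-coding genes. The muscle median stands between only 2 values, 11638 bp for Cacng6 and 100949 bp for Cacng1. The groups overlap, as Cacng6 was closer to a peak than the AMPA receptor members Cacng4 (22719 bp) and Cacng8 (31039 bp).

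**Figure D1:**
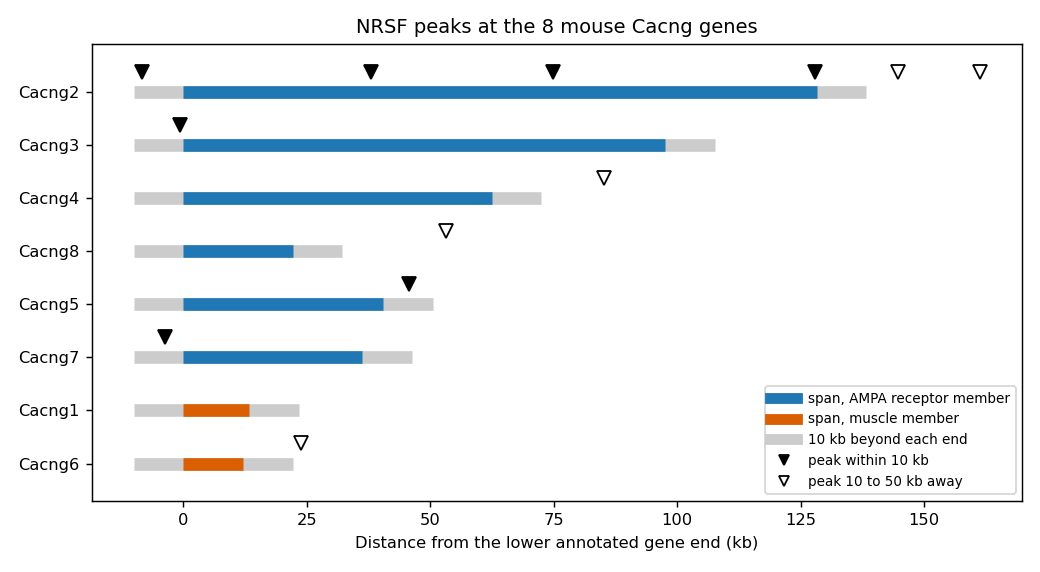
Annotated span of each Cacng gene (coloured bar), 10 kb beyond each end (grey) and NRSF peaks within 50 kb (triangles), in kb from the lower annotated gene end. Cacng2 carries 4 filled triangles, Cacng3, Cacng5 and Cacng7 carry 1 each, and the closest peak of Cacng6 lies just past the grey bar. The closest peak of Cacng1, 100949 bp away, is outside the 50 kb drawn.

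Stargazin had the most peaks of the family. Cacng2 spans 128.3 kb on chromosome 15, from 77991919 to 78120220, and is read from the upper end down. Its peaks lay at 77983405 to 77983805, 78029600 to 78030000, 78066490 to 78066890 and 78119685 to 78120085. The highest of these lay 605 bp upstream of the start site that RefSeq gives, 335 bp inside the upper end of the annotated span, which reaches beyond that start site. The peaks at 78029600 and 78066490 lay inside the gene, 89480 and 52590 bp downstream of the start site, and the peak at 77983405 lay 8314 bp past the other end, 135675 bp downstream of the start.

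These 4 peaks were spread along the gene rather than clustered at its start. Neighbouring midpoints were 46.2, 36.9 and 53.2 kb apart, whereas neighbouring peaks of the whole mouse list were a median of 434 kb apart. Of the 4, 3 had at least 3 other peaks within 100 kb, as did 7.17% of all mouse peaks. Cacng2 was singled out for these 4 peaks, which all lie in the gene or its 10 kb reach. Their closeness in both comparisons largely follows from that choice and is no further trait. A further pair of peaks lay upstream of the gene, beyond the 10 kb limit, at 78136365 to 78136765 and 78153065 to 78153465. They were 16345 and 33045 bp past the annotated end of Cacng2. All 6 peaks fell within 169.7 kb. The lower of that pair and the peak at the Cacng2 start also lay inside A730060N03Rik, a long noncoding RNA gene, and the peak at 78029600 lay inside a second one, Gm46520. The upper peak of the pair was 6195 bp from Ift27, a gene of intraflagellar transport, so positions alone do not assign it to Cacng2.

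Among protein-coding genes, 22 had at least 4 peaks (0.100%), and 11 had exactly 4, Cacng2 included. In the length class of Cacng2, 80 to 160 kb, 6 of 1802 genes had at least 4 peaks (0.333%). Genes with a span of 0.5 to 2 times that of Cacng2 averaged 0.148 peaks, and 12.2% of these 3211 genes had any. Of the 10 other genes with 4 peaks, the 5 closest to Cacng2 in span were Cdh22, a cadherin, with 123.4 kb, Srrm4, a splicing factor of neurons, with 153.3 kb, Slc2a9, a urate transporter, with 153.9 kb, Pde2a, a cyclic nucleotide phosphodiesterase, with 91.1 kb, and Celf4, an RNA-binding protein, with 276.9 kb. Cacng2 had 3 of its peaks inside its span. It was the only one of the 8 members with a peak inside, which 971 of all protein-coding genes had (4.43%).

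The other 3 members with a peak had 1 each, and each lay upstream of the gene. Cacng3, a type I member of the cerebral cortex, spans 97.6 kb on chromosome 7 from 122671744 to 122769393. Its peak at 122670795 to 122671195 lay 749 bp upstream of the start site. No other peak lay within 50 kb of the gene. A peak at most 749 bp away was found for 4.88% of protein-coding genes. Counted from start sites, Cacng2 and Cacng3 were the 2 of 6 members with a RefSeq start site used here (all but Cacng1 and Cacng4) that had a peak within 1 kb, against 237 of 17492 protein-coding genes with such a start site (1.35%).

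Both type II members, which associate with AMPA receptors but differ from type I in how they change the channel, had a peak a few kb upstream. Cacng5 spans 40.5 kb on chromosome 11 from 107874604 to 107915055, on the minus strand. Its peak at 107920125 to 107920525 lay 5270 bp upstream of the start site and 13062 bp from the next gene, Prkca. Cacng7 spans 36.2 kb on chromosome 7 from 3332027 to 3368221, and its peak at 3328025 to 3328425 lay 4600 bp upstream of the start site of its promoter window. That peak was the only one of the 7 to lie within 10 kb of another protein-coding gene, so its position does not assign it to Cacng7 alone. When each peak was given to its nearest gene alone, 3 of the 6 AMPA receptor members had one, without Cacng7, beside 5.76% of all protein-coding genes.

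In all 4 members with a peak, the peak closest to a start site lay upstream of it. Of the 682 protein-coding genes with a peak within 10 kb of a start site, 319 (46.8%) had their closest one upstream. With 4 genes this is a description only.

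Cacng4 and Cacng8 were the AMPA receptor members with no peak within 10 kb. Cacng4 is a type I member of glia and of the developing brain, and Cacng8 is the main type I member of the hippocampus. For Cacng4, which spans 62.4 kb on chromosome 11 from 107732357 to 107794706, the closest peak was at 107817225 to 107817625, 22719 bp past its upper end. For Cacng8, which spans 22.2 kb on chromosome 7 from 3394042 to 3416266, it was at 3447105 to 3447505, 31039 bp past the downstream end and 53263 bp from the start site. A peak as close as that of Cacng4 or closer was found for 10.5% of protein-coding genes, and one as close as that of Cacng8 or closer for 12.3%.

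The muscle members had their closest peaks at unlike distances. Cacng6, with 12.1 kb from 3423588 to 3435667 on chromosome 7, had the peak at 3447105 to 3447505 at 11638 bp past its downstream end, just outside the 10 kb limit. The same peak was the closest one of Cacng8. The member peak nearest to the limit from inside was the one at 77983405, 8314 bp from Cacng2. Cacng1, with 13.3 kb from 107703218 to 107716476 on chromosome 11, had no peak within 50 kb, and its closest, 100949 bp away, was the one nearest to Cacng4. At 20 kb the count therefore stood at 4 of 6 AMPA receptor members and 1 of 2 muscle members, beside 9.89% of all protein-coding genes.

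**Figure D2:**
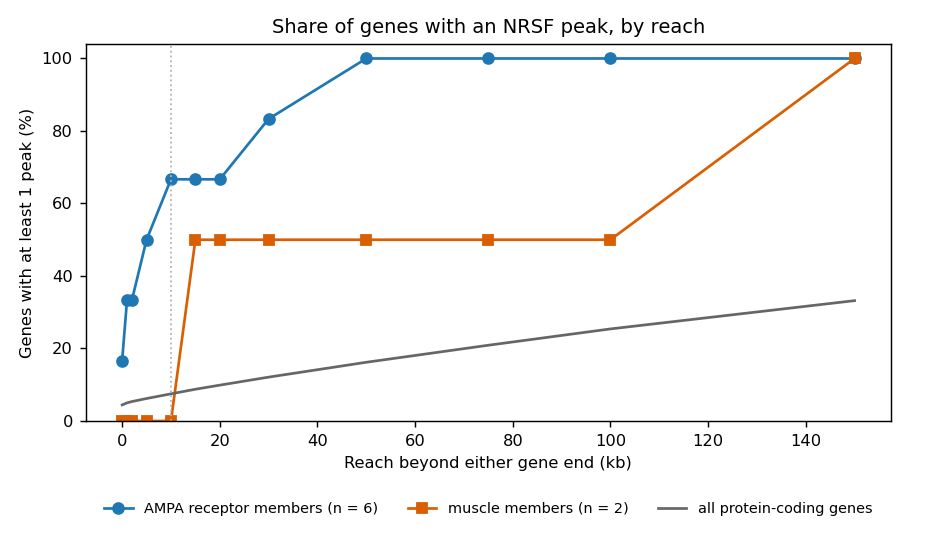
Percent of genes with at least 1 NRSF peak against the reach counted beyond either gene end, in kb, for the 6 AMPA receptor members, the 2 muscle members and all protein-coding genes; the dotted line marks 10 kb. All 6 AMPA receptor members have a peak from 50 kb on, with all genes at 16.2% at 50 kb. Muscle members stay at 0 up to 10 kb, with 1 of 2 having a peak from 15 kb and both at 150 kb. The line of all genes is at 8.76% at 15 kb and reaches 33.2% at 150 kb.

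The groups also differ in length, and the share of protein-coding genes with a peak was not the same at all lengths. It was 6.05% for spans of 5 to 10 kb, 6.07% for 10 to 20 kb and 6.03% for 20 to 40 kb, the class of Cacng7 and Cacng8, and then 9.55% for 40 to 80 kb, the class of Cacng4 and Cacng5. The median span was 51.4 kb in the AMPA receptor members and 12.7 kb in the muscle members. Among protein-coding genes with spans of 80 to 160 kb, the class of Cacng2 and Cacng3, 11.9% had a peak (95% exact interval 10.4 to 13.5%, counting error only), against 6.07% (5.34 to 6.86%) in the class of 10 to 20 kb that holds both muscle members. Spans and 10 kb reaches together came to 507.2 kb in the AMPA receptor members, 65.3 kb in the muscle members and 572.5 kb in all 8. The AMPA receptor members held 7 peaks (1.38 per 100 kb), or 3 in 5 genes without Cacng2 (0.836 per 100 kb), and the muscle members 0. All protein-coding genes held 0.132 peaks per 100 kb of span and reach. At that rate the AMPA receptor members would hold 0.671 peaks, or 0.474 without Cacng2, the muscle members 0.0863 and all 8 together 0.757. The contrast was selected on these same peaks, so the higher count in the AMPA receptor members is a description and no finding of enrichment. A stretch as short as that of the muscle members would seldom hold a peak at the all-gene rate, so their 0 does not set them apart from genes in general.

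**Figure D3:**
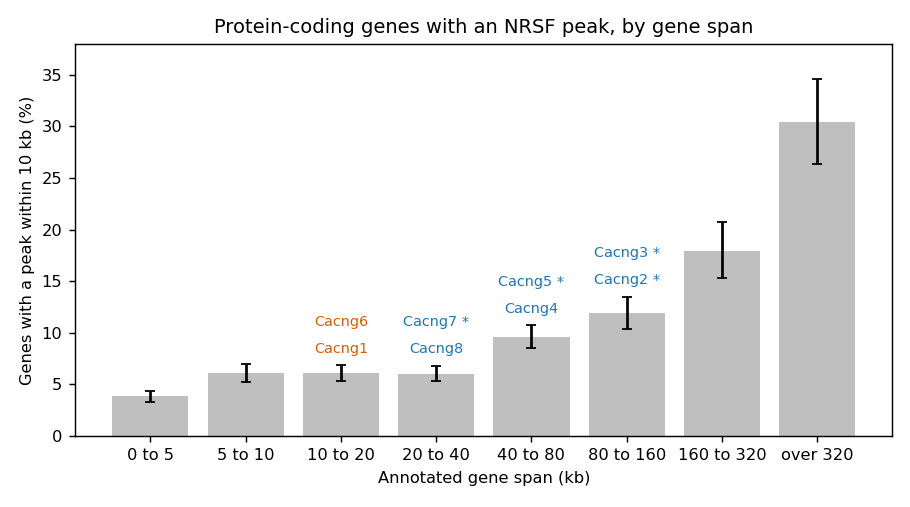
Percent of protein-coding genes with an NRSF peak within 10 kb, by class of annotated span in kb (bars, with exact 95% intervals), with each Cacng gene named above its class, AMPA receptor members in blue and muscle members in orange; an asterisk marks members with a peak. The share is 11.9% in the class of Cacng2 and Cacng3 and 6.07% in that of Cacng1 and Cacng6.

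Position relates the members to each other, since 6 of the 8 lie in a pair of tandem groups. Cacng7, Cacng8 and Cacng6 lie side by side on chromosome 7, with gaps of 25.8 and 7.3 kb. Within the group no peak lay between or inside the genes: a peak stood on either flank, at Cacng7 and past Cacng6. Cacng1, Cacng4 and Cacng5 lie side by side on chromosome 11, with gaps of 15.9 and 79.9 kb. There a peak stood in the wide gap between Cacng4 and Cacng5, and another past Cacng5. The members of a group are therefore not independent of each other, and the distances of Cacng8 and Cacng6, and of Cacng1 and Cacng4, are each measured to a common peak.

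**Figure D4:**
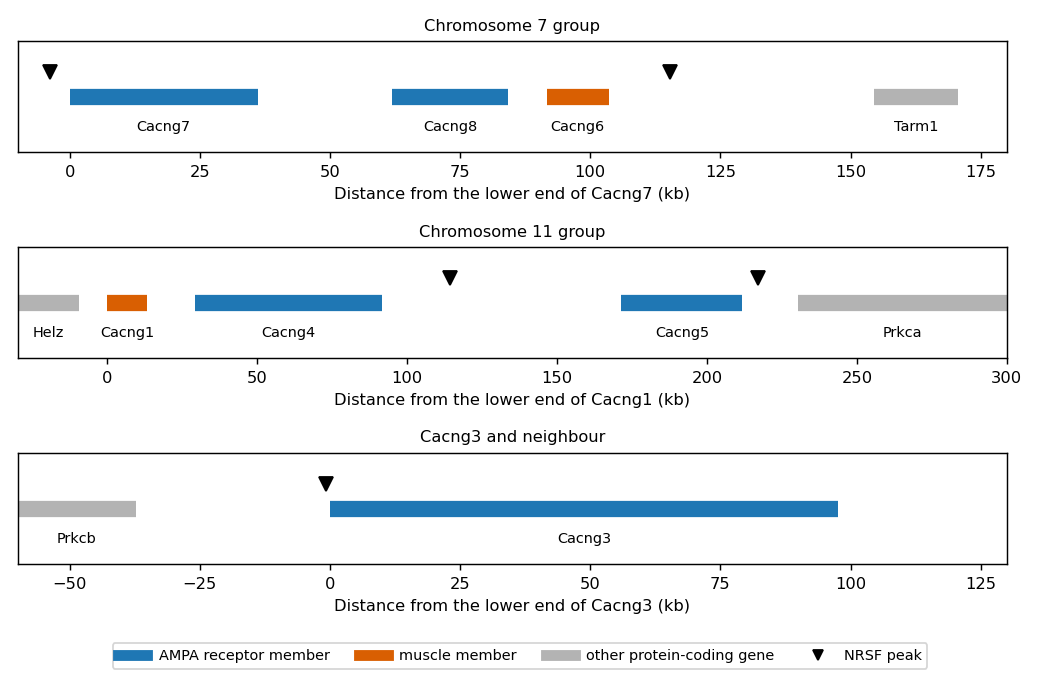
Cacng genes, some of their protein-coding neighbours and NRSF peaks in the tandem groups on chromosomes 7 and 11 and around Cacng3, in kb from the lower end of Cacng7, Cacng1 and Cacng3. Peaks (triangles) flank the chromosome 7 group at -3.8 and 115.3 kb, lie on either side of Cacng5 at 114.2 and 217.1 kb, and lie at -0.7 kb at Cacng3.

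Promoter windows from RefSeq on GRCm38.p6, which run from 250 bases before a start site to 50 bases from it, were searched for letters of the NRSF element, which the choice of members did not use. The element was taken as a left box, CAGCACC, then 2 bases of any kind, then the right box GGACAG, and both strands were read. The joined element occurred in 8 of the 145 windows of any gene that share bases with a peak (5.52%) and in 12 of all 32851 windows (0.0365%). The windows of 4 members were used: Cacng8, Cacng5 (which has 2), Cacng7 and Cacng6. None of these 5 windows held it, also with 1 mismatch allowed among its 13 fixed letters, which 0.186% of all windows did. None of these windows shared a base with a peak, and the sequence of the peaks themselves was not used here, so these letters say nothing of what lies under the peaks.

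The right box alone was found in 4 of the 5 windows, against 22.2% of all windows, and the left box in none, against 7.14%. The 4 were both windows of Cacng5 and those of Cacng8 and Cacng6. Among windows of any gene that share bases with a peak, 42.8% held the right box and 23.4% the left box. In the Cacng8 window GGACAG begins 167 bases before the start site and in the Cacng6 window 43 bases after it. The window of Cacng7 held neither box on either strand. In base composition the Cacng5 windows had 63.3% G and C with 17 CpG pairs and 57.3% with 5, the Cacng7 window had 62.0% with 15 and that of Cacng8 had 50% with 2. The muscle member Cacng6 had 52.7% with 8 in its window, and the median over all windows was 52.7% with 7.

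Partners of the members were counted in the same way, together with relatives in sequence. Of 26 other genes of the AMPA receptor complex 10 had a peak (38.5%, 95% exact interval 20.2 to 59.4%, counting error only). Of 15 genes of muscle excitation-contraction coupling 1 did (6.67%, 0.169 to 31.9%). Of 19 relatives of the gamma subunits with the claudin fold 3 did (15.8%, 3.38 to 39.6%), beside 7.49% of all protein-coding genes. The intervals all overlap each other. The lists were chosen with earlier results of these data known, so the intervals are no test against that share or between lists. The median closest distances were 101425, 291211 and 188057 bp. The median spans were 68.2 kb in the AMPA receptor list and 64.9 kb in the muscle list, but 9 of 26 genes of the AMPA receptor list were longer than 200 kb, against 3 of 15 of the muscle list. Of the 10 genes of the AMPA receptor list with a peak, 4 were that long. The difference between the lists, and the part of length in it, was not tested.

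In the AMPA receptor list, the members with the most peaks were Grip2, a scaffold that binds the receptor tail, and Nptxr, a receptor for the pentraxins that gather AMPA receptors, with 2 each. Gria2, the subunit that sets calcium permeability, had 1 peak, 1222 bp from a gene end, while Gria1, Gria3 and Gria4 had none. The secreted pentraxins Nptx1 and Nptx2 had peaks 1506 and 3057 bp from an end, and Nsf, an ATPase that binds the receptor, had 1 peak deep inside the gene. The scaffold genes Grip1 and Dlg2, with spans of 634.0 and 1973.1 kb, had 1 peak inside each. Of the genes that encode other auxiliary subunits of the receptor, Shisa6 and Gsg1l had a peak inside, and Cnih2, Cnih3, Shisa7, Shisa8 and Shisa9 had none within reach. Frrs1l, Cpt1c, Prrt1 and Abhd6, further genes of this list, had none either. The scaffold Dlg4 (PSD-95), to which the tails of type I members bind, also had none.

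In the muscle list the 1 gene with a peak was Sypl2, which encodes mitsugumin 29 of the triad junction, with the peak 4535 bp from an end. Cacna1s, the pore subunit that Cacng1 joins, and Cacnb1, its beta subunit, had their closest peaks 417821 and 291211 bp away. In the list of relatives, Gsg1l, also counted in the AMPA receptor list, Cldn10, a claudin of tight junctions, and Tmem235 had 1 peak each. That of Tmem235 lay 7572 bp outside the gene.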

How the data were processed

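NRSF ChIP-seq was done on 2 immunoprecipitated samples and 1 input of RAW264.7 cells, with fragments of 200 to 300 bp, per the labels' protocols. The authors deposited 1 mouse list of peak positions for both samples; how they were combined, the peak threshold and whether positions count from 0 or 1 are not stated in these sources. Bowtie 0.12.8, MACS 1.4.2 and mm10 are named in the submitters' processing notes. Gene spans came from RefSeq GRCm38.p6, the assembly mm10 denotes, and all 8 members matched by symbol, as did every gene of the 3 background lists. A peak counted for every gene whose span, or 10 kb beyond either end, held its midpoint. Members and lists were chosen with earlier results of these data known. Named genes are the members, genes sharing or nearest to their peaks, list members with a peak (up to 6, those with the most peaks coming first) and the 5 genes most like Cacng2. Prkca, Gria1, Gria3, Gria4, Grip1, Dlg2, Cnih2, Cnih3, Shisa6, Shisa7, Shisa8, Shisa9, Gsg1l, Frrs1l, Cpt1c, Prrt1, Abhd6, Dlg4, Cacna1s, Cacnb1 and the neighbours below were named after their values were seen. Counting was tested on simulated data, in which 200 of 200 planted peaks were found among 20665 genes. Some sequences and neighbouring genes are not reported here. Python 3.11.15 with numpy 2.4.6, pandas 2.3.3 and scipy 1.17.1 was used.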

Additional observations from a re-analysis of the deposited data

How the results depend on the processing

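The counts depend on the reach. With the gene span only, 1 member had a peak, an AMPA receptor member, beside 4.43% of protein-coding genes. At 1 kb the count was 2 members, both AMPA receptor members, beside 5.0% of genes, and at 5 kb 6.20% of genes had a peak. At 20 kb 1 muscle member had a peak, with 3 genes of muscle excitation-contraction coupling and 9.89% of genes. At 50 kb 7 members did, 1 of them a muscle member, with 5 muscle coupling genes and 16.2% of genes, and 0.215% of genes had at least 4 peaks. With each peak given to its nearest gene, 5.76% of genes had one. Type I alone gave 2 AMPA receptor members. Without Cacng2 the AMPA receptor members had 0 peaks per 100 kb of span, against 0.775 with it and 0.114 over all protein-coding genes. Among genes with a span of 0.5 to 2 times that of a member, the share with a peak was 12.2% for Cacng2, 11.4% for Cacng3, 9.25% for Cacng4, 6.16% for Cacng8, 5.94% for Cacng1 and 6.01% for Cacng6. Of 140 alternative values, 105 stayed within 1.5 times the count or inside its interval. Counting any overlap, or moving positions by 1 base, changed none of the member counts. No paired analysis was possible because the list joins both replicates; for the same reason leaving out a replicate, and with no peak score a stricter threshold, could not be run. Protein identity was not run here.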

Other observations

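A protein kinase C gene was the nearest protein-coding neighbour of Cacng5 and of Cacng3, on different chromosomes. Prkca lay 18.3 kb from Cacng5 and Prkcb 37.3 kb from Cacng3, and in both cases a peak stood at the end of the Cacng gene that faces the kinase gene. The peak lay 13062 bp from Prkca and 36593 bp from Prkcb. Prkca, with 410.5 kb, and Prkcb, with 345.3 kb, thus had no peak within 10 kb. Cacng2, the member with the most peaks, had other neighbours: Eif3d, a translation initiation factor, 21.1 kb away with its closest peak at 12781 bp, and Ift27, 39.2 kb away with 1 peak. This arrangement was noticed after the positions were seen and was not tested.

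Past Cacng6 the closest protein-coding gene was Tarm1, an immune receptor of myeloid cells, with a gap of 50.8 kb and no peak within reach. The peak between them lay 5005 bp from Gm35037, a long noncoding RNA gene.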
